A study of Gallus gallus with 12 samples.

Results

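A stretch of chicken chromosome 1 holds a group of open chromatin regions detected in dorsal retina alone and, 1875 kb further along, a group detected in optic fissure margin (OFM) alone. The stretch takes in all peaks of the 4 deposited peak lists on chromosome 1 with a start from 143000000 to below 146500000, which is 3.5 Mb. Its 939 peaks were merged, wherever they overlapped by at least 1 bp, into 291 union regions, out of 127749 in the genome and 18510 on chromosome 1. The stretch was chosen by the tissue contrast of these same lists, which of the 4 lists hold a peak, after clusters had been seen in it. Every value that sets OFM against dorsal retina is therefore a description of how the stretch looks and carries no test.

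The optic fissure is a transient gap on the ventral side of the optic cup, and its margins meet and fuse during normal eye development. The dorsal retina has no fissure and serves as the comparison tissue. The 2 sides of the optic cup take on different identities under signals along the dorsal to ventral axis, with BMP signalling and the factor Tbx5 acting dorsally, and Vax and Pax2 factors acting ventrally. Much of such regional gene control is read out at distal regulatory elements, which are often grouped near the gene they act on and are open in the cells that use them. An ATAC peak marks open DNA and does not by itself identify an enhancer or its gene.

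The 4 groups were OFM at Hamburger-Hamilton stage 34 (HH34), dorsal retina at HH34, OFM at HH30 and dorsal retina at HH30, all from wildtype hy-line chicken embryos with no treatment. Each group had 3 libraries, each made from pooled tissue of 10 embryos and 50000 counted cells, by the omni-ATAC-seq protocol with 75 bp paired-end reads. Tissue was dissected in bulk, so the lists mix all cell types of a dissected piece, and a site open in fewer cells cannot be told apart from a site less open in each cell. The authors called peaks jointly over the 3 libraries of a group. There is thus 1 list per group, with no value per replicate and no read depth per library, so no difference between lists was held against replicate spread. Cell type markers are not measured by peak positions, and the tissue labels were not checked.

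Peak strength is given as a rank percentile. Peaks of a list were ordered by the authors' area score, and the strongest peak of a list stands at 100. Where a region held several peaks of a list, the best ranked one counted. The percentile can be set side by side between lists, while the area score cannot, because its scale is not recorded. Coordinates are those of the lists, counted from 1, in GRCg6a (galGal6) per the submitters' processing notes. Neither the genes nor the DNA sequence at these positions were analysed here.

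The stretch was covered by peaks over 3.6% to 4.66% of its length, depending on the list. It held 234 peaks in OFM and 208 in dorsal retina at HH34, and 260 in OFM and 237 in dorsal retina at HH30. These peaks covered 143.0 kb in OFM and 126.0 kb in dorsal retina at HH34, or 4.1% and 3.6% of the stretch. At HH30 they covered 163.0 kb and 139.0 kb. At HH34 the median peak was 362 bp wide in OFM and 373 bp wide in dorsal retina, and at HH30 the widths were 400 bp and 360 bp, close to the 378 to 384 bp of the whole lists. OFM thus had the more peaks and the more open sequence at both stages. The OFM lists were also longer as a whole. As a share of the whole list, the stretch held 0.223% of OFM and 0.205% of dorsal peaks at HH34, and 0.239% and 0.223% at HH30.

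Of the 291 regions, 171 (58.8%) had a peak in all 4 lists, against 60.6% of all regions in the genome. A further 58 regions (19.9%) had peaks in OFM lists only, against 10.7% in the genome, and 20 (6.87%) had peaks in dorsal lists only, against 7.64% in the genome. Regions in both OFM lists and no dorsal list numbered 17, or 5.84% against 2.22% in the genome. Those in both dorsal lists and no OFM list numbered 11, or 3.78% against 1.22% in the genome. Both kinds of region thus had a larger share than in the genome, which is what the stretch was chosen for. No region was held by OFM HH34 with dorsal HH30 alone or by dorsal HH34 with OFM HH30 alone, the pairs that share neither tissue nor stage. These pairs made up only 0.247% and 0.0986% of regions in the genome, so their absence among 291 regions is close to the genome share.

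**Figure D1:**
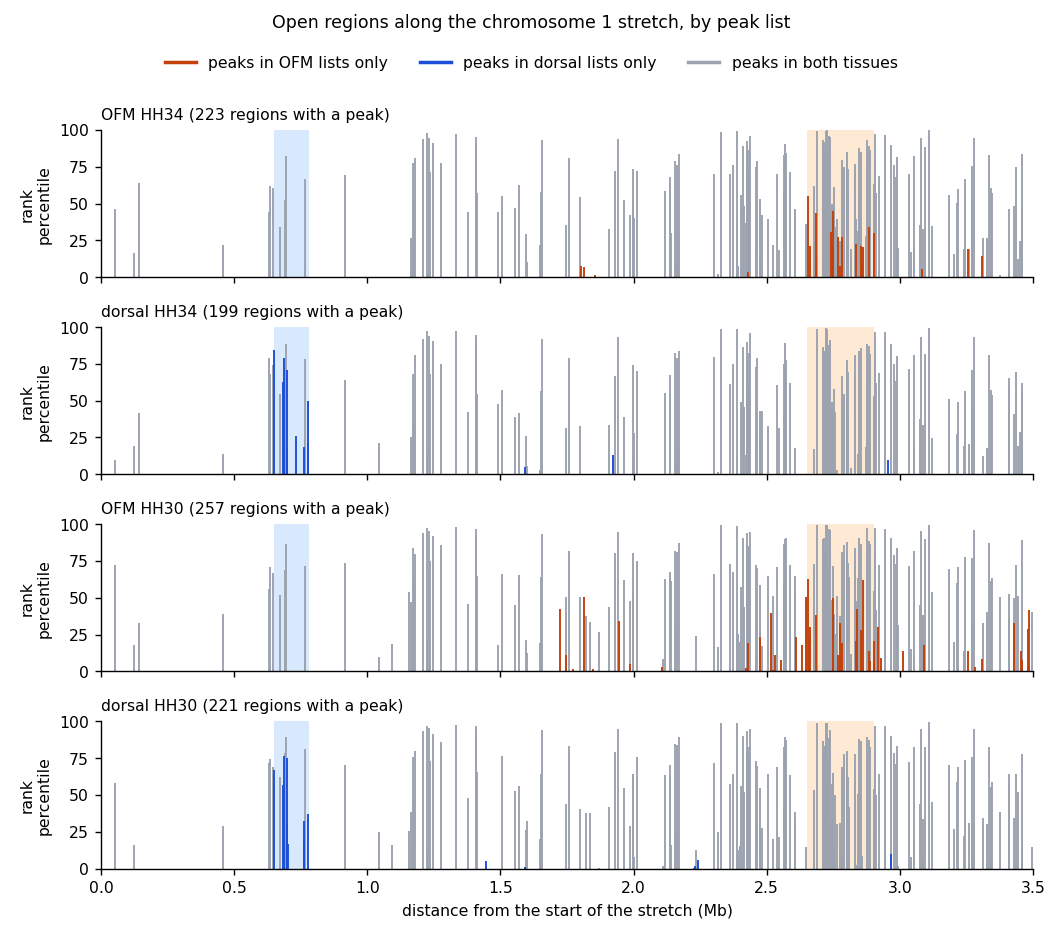
Open regions along the stretch in each of the 4 peak lists. Each line is a region at its distance from the start of the stretch in Mb, its height is the rank percentile of the region in that list (100 is the strongest peak of the list), and colour gives the tissues that hold it. Blue shading marks the 130.0 kb dorsal cluster and orange shading the 251.0 kb OFM cluster. Blue lines gather in the dorsal cluster and orange lines in and around the OFM cluster.

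Regions held by both lists of 1 tissue alone lay mostly in separate places along the stretch when peaks were merged at 1 bp overlap. With a reciprocal overlap of 50% or with summits at most 200 bp apart, the span of the OFM group also held 2 such dorsal regions, and with the summit setting the span of the dorsal group held 1 such OFM region. In consecutive bins of 500 kb, the second bin (143500001 to 144000000) held 9 of the 11 regions of both dorsal lists alone and 0 of the 17 of both OFM lists alone. The sixth bin (145500001 to 146000000) held 13 of the 17 of both OFM lists alone and 0 of both dorsal lists alone. Of all 291 regions, the second bin held 21 and the sixth 114, so the sixth was far denser in regions of any kind. Bins 3 to 5, which lie between them, together held 2 of each kind. Of the 2099 bins of the genome with any region, 9 held at least 9 regions of both dorsal lists alone, counting this one, and 2 held at least 13 of both OFM lists alone. These counts were not scaled by the number of regions in a bin.

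Counts at each stage by itself showed the same order, in part by construction. They include the 9 regions of both dorsal lists alone in the second bin and the 13 of both OFM lists alone in the sixth. In the sixth bin, 24 regions had an OFM peak and no dorsal peak at HH34, against 1 with a dorsal peak and no OFM peak, and the counts at HH30 were 32 and 2. In the second bin these counts were 0 and 10 at HH34, and 0 and 11 at HH30. The seventh bin also leaned to OFM, with 7 against 0 at HH34 and 12 against 2 at HH30. Regions of any kind numbered 21 in the second bin, 114 in the sixth and 51 in the seventh. Over the whole stretch, 39 regions had an OFM peak and no dorsal peak at HH34 and 15 the opposite, a ratio of 2.6 against 1.38 in the genome. At HH30 there were 57 and 21, a ratio of 2.71 against 1.34 in the genome.

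**Figure D2:**
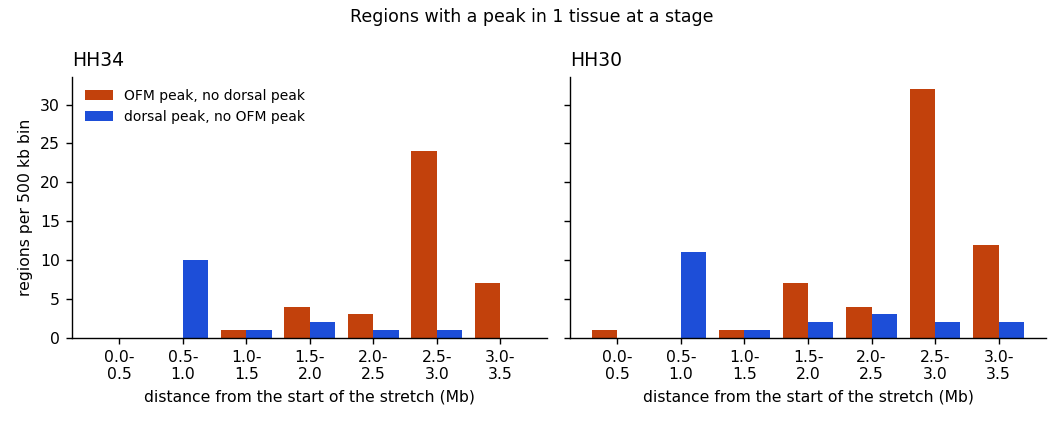
Regions with a peak in 1 tissue at a stage, counted in 7 bins of 500 kb along the stretch, at HH34 (left) and HH30 (right). Orange bars count regions with an OFM peak and no dorsal peak, blue bars the opposite. Blue bars peak at 10 (HH34) and 11 (HH30) in the second bin and orange bars at 24 and 32 in the sixth.

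Counted by peak, 46 OFM peaks of the stretch (19.7%) had no dorsal peak at HH34, against 11.3% of the whole OFM list, and 15 dorsal peaks (7.21%) had no OFM peak, against 8.21% of the whole dorsal list. At HH30, 57 OFM peaks (21.9%, against 12.0% of the list) and 24 dorsal peaks (10.1%, against 9.76% of the list) were unmatched. Unmatched peaks were mostly weak, with a median percentile of 17.3 to 21.2. Strong ones were not fewer in dorsal retina than in OFM, although dorsal retina had fewer unmatched peaks. In the upper 50% of their list lay 1 unmatched OFM peak and 5 unmatched dorsal peaks at HH34, and 5 of each at HH30.

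The dorsal cluster was taken as the chain of regions of both dorsal lists alone in which neighbours lay at most 100 kb apart, with at least 5 members. It ran from 143648019 to 143778145, a span of 130.0 kb with 17 regions. Of these, 12 (70.6%) were in dorsal lists only, 9 of them in both, and 0 were in OFM lists only. The remaining 5 (29.4%) were in all 4 lists. OFM had 5 peaks in the span at each stage and dorsal retina 15 at HH34 and 17 at HH30. Peaks covered 1.65 kb in OFM and 6.32 kb in dorsal retina at HH34, and 1.88 kb and 6.2 kb at HH30.

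The members of this cluster differed widely in strength. The region placed first by the worse of its ranks at the 2 stages lay at 143687979 to 143688721 and stood at percentile 79.1 at HH34 and 76.5 at HH30. Its −log10 q at the summit, the authors' value, was 14.5 at HH34 and 11.1 at HH30. OFM peaks came no closer than 1263 bp at HH34 and 1229 bp at HH30. A region of high rank in both dorsal lists thus lay where neither OFM list had a peak. The region at 143699979 to 143700618 was similar, with percentiles of 71.1 at HH34 and 75.2 at HH30, and its summit was called at the same base, 143700261, in both dorsal lists. Its nearest OFM peaks were 5680 bp away at HH34 and 5660 bp away at HH30.

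The region at 143648019 to 143649128 was the highest ranked of the kind at HH34 and differed in extent between stages. At HH34 it was a single dorsal peak of 1110 bp at percentile 84.2, with a −log10 q of 15.5. At HH30 it was split into 2 peaks, the better ranked of which was 377 bp wide and stood at percentile 66.8 with a −log10 q of 10.5. The regions at 143684353 to 143685068 (percentile 62.9 at HH34 and 57.0 at HH30) and at 143776784 to 143777104 (50.1 and 37.3) were of middle rank. All 5 of these regions ranked in the upper 50% of the dorsal list at HH34, and all but the last did so at HH30.

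The other members were short and weak. Those at 143687439 to 143687577, 143698875 to 143699060 and 143763732 to 143763894 stood at percentiles of 17.4 to 21.6 at HH34 and 16.5 to 30.5 at HH30, with region widths of 139 to 186 bp. The last member, at 143777985 to 143778145, stood at 21.1 at HH34 and at 0.5 at HH30, near the weak end of the list, so the edge of the cluster rests on a peak close to the calling threshold. The 2 regions of both dorsal lists alone outside the cluster, at 144591285 to 144591455 and 145241265 to 145241519, had percentiles of 0.5 to 5.8. No OFM peak lay within 500 bp of any of the 11 regions, and the smallest distance was 1121 bp.

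The regions that both tissues shared at the dorsal cluster leaned the same way. The cluster and 3 regions just before it formed a group of 20 regions, from 143631407 to 143778145, with empty DNA of 172.0 kb before it and 138.0 kb after it. Its 8 regions in all 4 lists ranked lower in OFM than in dorsal retina at both stages, in 8 of 8. Of the regions of the genome in all 4 lists, 32.1% ranked lower in OFM at both stages. Among all regions in both tissues, 44.0% ranked higher in dorsal retina at HH34 and 46.4% at HH30. At 143689949 to 143690299 the percentile was 52.4 in OFM and 73.8 in dorsal retina at HH34, and 69.0 and 78.4 at HH30. At 143673313 to 143673619 it was 34.3 in OFM and 54.7 in dorsal retina at HH34, and 51.8 and 62.3 at HH30. At the strongest of these shared regions, 143693697 to 143694408, the tissues were closer, with 82.2 in OFM and 88.5 in dorsal retina at HH34 and 86.2 and 89.1 at HH30.

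In these 8 regions the tissues lay further apart at HH34 than at HH30, in 8 of 8, with OFM minus dorsal lower at HH34. Among the 159 regions in all 4 lists from 144043062 to 146497612, the signed value of OFM minus dorsal was lower at HH34 in 41. Only 18 of the 159 ranked lower in OFM at both stages. Where OFM ranks higher, a lower value means closer tissues, so the 41 do not count regions with tissues further apart. In the OFM cluster the median of OFM minus dorsal was also larger at HH34, at 9.83 against 7.71 at HH30. The share of regions with tissues further apart at HH34 was not computed for the genome or for the 159. The 8 regions were grouped after seeing the data. Over the 5 inside the dorsal cluster, the median difference of OFM minus dorsal was −20.33 percentile points at HH34 and −9.43 at HH30. The first region of the group, 143631407 to 143632020, had the widest difference of the group, with 44.0 in OFM and 78.9 in dorsal retina at HH34 and 56.2 and 71.9 at HH30. Ranks in OFM were lower at HH34 than at HH30 in 8 of the 8, and ranks in dorsal retina in 5 of the 8. For all regions of the genome held by OFM at both stages, 39.9% ranked higher at HH34, and the share for dorsal retina was 39.4%. Lower percentiles at HH34 were thus the more common direction in both tissues. Both HH30 lists are longer than the HH34 list of the same tissue, so an equal rank gives a lower percentile at HH34.

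**Figure D3:**
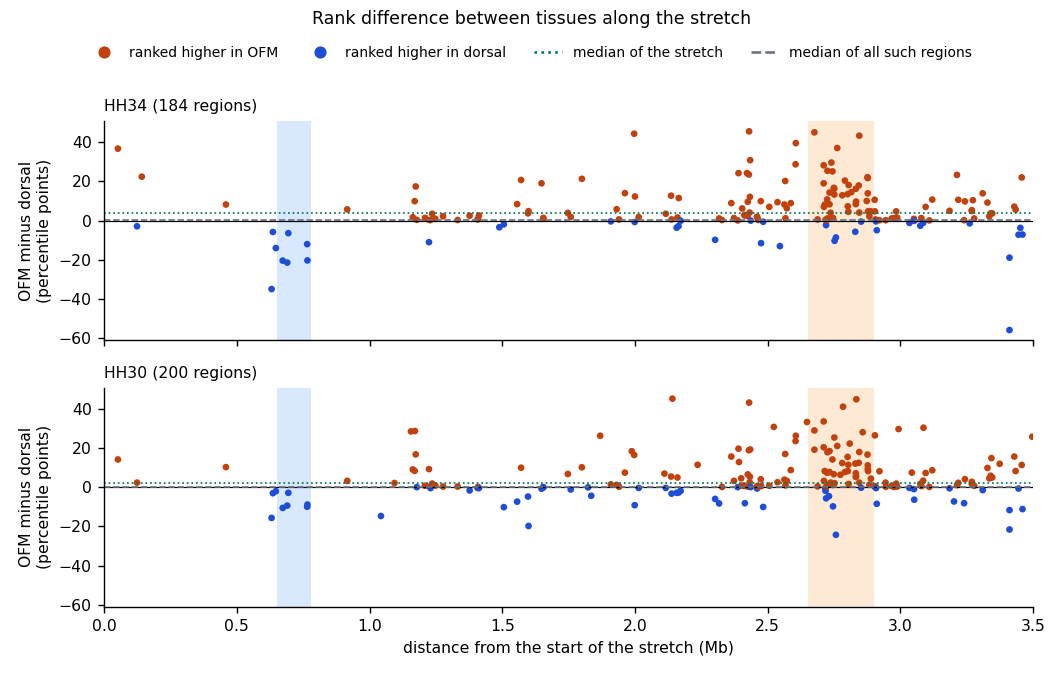
Rank difference between tissues (OFM minus dorsal, in percentile points) of regions held by both tissues, at HH34 (top) and HH30 (bottom), against distance from the start of the stretch. Shading marks the dorsal cluster (blue) and the OFM cluster (orange), the dotted line the median of the stretch (3.67 at HH34, 2.28 at HH30) and the dashed line that of all such regions (0.41 and 0.18). Points in and just before the blue span lie below 0 at both stages and most points in the orange span lie above it.

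The OFM cluster, found in the same way, ran from 145652784 to 145903984. This span of 251.0 kb was far denser, with 79 regions or 31.5 per 100 kb, against 13.1 per 100 kb in the dorsal cluster. It held 23 regions (29.1%) in OFM lists only, 13 of them in both, 0 in dorsal lists only and 56 (70.9%) in both tissues. OFM and dorsal retina had 77 and 56 peaks there at HH34, and 77 and 61 at HH30. Peaks covered 56.5 kb in OFM and 42.2 kb in dorsal retina at HH34, and 58.5 kb and 45.4 kb at HH30. Whereas most regions of the dorsal cluster lacked an OFM peak, most regions of the OFM cluster were open in dorsal retina too.

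The regions of both OFM lists alone were also weaker than the leading dorsal ones. The best ranked lay at 145652784 to 145653123, with percentiles of 55.4 at HH34 and 62.7 at HH30 and −log10 q of 8.61 and 10.7. Its summit was called at 145653030 in both lists, and the nearest dorsal peaks were 22850 bp away at HH34 and 4427 bp away at HH30. It was the only 1 of the 17 in the upper 50% of the OFM list at HH34, and at HH30 there were 4 of the 17. One of these 4, at 144814296 to 144814951 outside the cluster, was the widest of all 17 at 656 bp and stood at percentile 6.9 at HH34 and 50.7 at HH30 (it falls outside the naming rule and was chosen after its values were seen). The region at 145748713 to 145749310 was the widest of the leading ones, with OFM peaks of 590 bp at HH34 and 593 bp at HH30, and stood at percentiles of 44.7 and 50.1. It lay only 194 bp from a dorsal peak at HH34 and 179 bp from one at HH30.

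The region at 145862293 to 145862594 differed most between stages among the named OFM regions. It stood at percentile 20.8 at HH34 and at 62.0 at HH30, with −log10 q of 4.83 and 11.1. The region at 145685367 to 145685668 kept a middle rank, at 43.5 and 38.3. The other 6 of the 10 named regions of both OFM lists alone, between 145661468 and 145903984, stood at percentiles of 21.2 to 34.0 at HH34 and 13.9 to 30.2 at HH30. Of all 17, 5 lay less than 500 bp from a dorsal peak of either stage, and the median distance was 1584 bp. For the 11 dorsal regions the median distance to an OFM peak was 4588 bp, so the dorsal regions stood further from peaks of the other tissue. Regions of any kind were also more widely spaced in the dorsal cluster, with a median gap of 1798 bp against 602 bp in the OFM cluster. Whether the distances follow from this spacing was not tested.

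Shared regions of the OFM cluster ranked higher in OFM. At HH34, 45 of 50 regions held by both tissues (90.0%) did so, against 56.0% in the genome, with a median difference of 9.83 percentile points. At HH30 it was 45 of 52 (86.5%), against 53.6% in the genome, with a median of 7.71. Of the 46 regions in all 4 lists, 37 (80.4%) ranked higher in OFM at both stages, against 42.4% of such regions in the genome. Another 3 (6.52%) ranked lower at both, against 32.1% in the genome. Many regions of the cluster are close neighbours, with 31 of 78 gaps under 300 bp, and are not independent of each other. When such gaps were bridged, 22 of 26 joined regions ranked higher in OFM at HH34 and 24 of 28 at HH30, with smaller medians of 4.83 and 3.92.

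**Figure D4:**
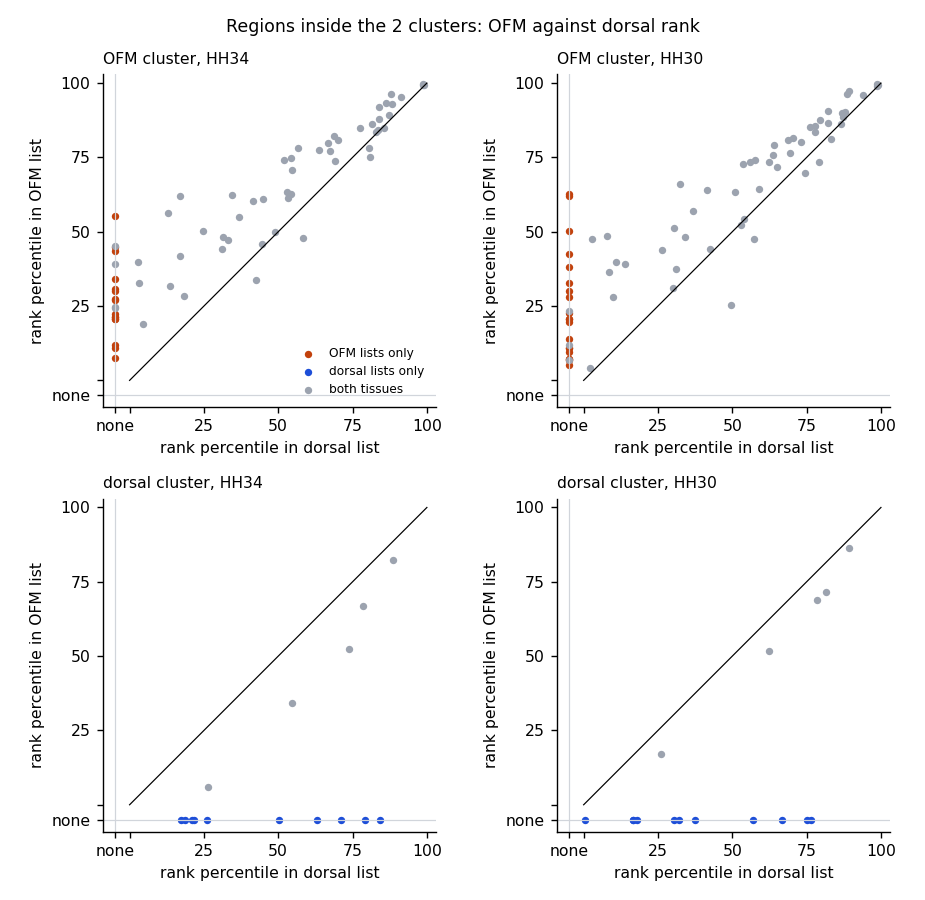
Rank percentile in the OFM list against that in the dorsal list for regions inside the OFM cluster (top) and the dorsal cluster (bottom), at HH34 (left) and HH30 (right). Points on the line marked none have no peak in that list, colour gives the tissues that hold the region in any list, and the diagonal marks equal rank. In the OFM cluster most shared points lie above the diagonal, and the dorsal cluster's 5 shared points lie below it.

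A core of broad regions open in both tissues sits within the OFM cluster. Of the 5 strongest regions of the stretch in all 4 lists, 3 lay there. The widest, at 145725499 to 145730338, had an OFM peak of 4840 bp and a dorsal peak of 4518 bp at HH34, and peaks of 4818 bp and 4503 bp at HH30. It stood at percentile 99.7 in OFM and 98.6 in dorsal retina at both stages. Its neighbour at 145720833 to 145723894 stood at 99.3 in OFM and 99.1 in dorsal retina at HH34 and at 99.1 and 98.7 at HH30. The third, at 145687818 to 145690213, was at 99.4 and 98.8 at HH34 and at 99.4 and 99.0 at HH30. These 3 regions were picked for a high rank in all 4 lists, so their percentiles had little room to differ. Their difference of at most 1.1 points between tissues does not show that broad regions are more alike than other shared regions.

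Outside the clusters, the strongest shared regions were alike in all lists. The region at 146108830 to 146111288 stood at 99.7 in OFM and 99.6 in dorsal retina at HH34, and at 99.7 in both tissues at HH30. The region at 145386590 to 145388712 stood at 99.0 in OFM and 98.8 in dorsal retina at HH34 and at 99.0 in both at HH30. A percentile cannot rise above 100, so differences are compressed at the top of a list. Among regions with a mean percentile of 20 to 80, a setting chosen after seeing the data, the median difference of OFM minus dorsal in the stretch was 6.56 at HH34 and 5.33 at HH30, against 0.85 and 0.31 in the genome.

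Of all shared regions of the stretch, those with the largest difference in favour of OFM at both stages lay in or before the OFM cluster. At 145429762 to 145430558, OFM stood at 48.4 and dorsal retina at 3.0 at HH34, and OFM at 67.7 and dorsal retina at 24.7 at HH30. The HH34 summits there were at 145430217 in OFM and at 145429859 in dorsal retina, so the HH34 values compare peaks in different parts of the region. The HH30 summits lay together, at 145430217 in OFM and 145430218 in dorsal retina. At 145710553 to 145711251, OFM stood at 62.5 and dorsal retina at 34.3 at HH34, and at 66.0 and 32.5 at HH30. At 145606439 to 145606977, the values were 45.4 and 5.9 at HH34 and 64.8 and 38.6 at HH30. In this last region the dorsal peak was 159 bp wide at HH34, against 430 bp in OFM.

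Ordered by the smaller of their differences at the 2 stages, the 3 regions furthest in favour of dorsal retina lay outside the dorsal cluster. By HH34 alone, 143689949 to 143690299 inside the cluster differed by −21.4 points, against −18.9 at 146410576 to 146410849. At 146410965 to 146411286, near the far end of the stretch, OFM stood at 2.7 and dorsal retina at 58.6 at HH34, and at 35.3 and 56.9 at HH30. The OFM summits there were at 146411195 (HH34) and 146411190 (HH30), and the dorsal summits at 146411049 and 146411056. The values thus compare summits in different parts of the region. Its neighbour at 146410576 to 146410849 leaned the same way, with 46.2 in OFM and 65.1 in dorsal retina at HH34 and 52.6 and 64.2 at HH30. This pair stood against its surroundings, since the seventh bin had 22 of 32 shared regions ranked higher in OFM at HH34 and 24 of 35 at HH30. The remaining one of the 3 was the region at 143631407 to 143632020, the first of the group at the dorsal cluster.

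Over the whole stretch, 146 of 184 shared regions (79.3%) ranked higher in OFM at HH34, against 56.0% in the genome and 61.6% on the rest of chromosome 1. At HH30, 143 of 200 (71.5%) did so, against 53.6% in the genome and 57.4% on the rest of chromosome 1. The median differences were 3.67 points at HH34 and 2.28 at HH30, against 0.41 and 0.18 in the genome, and with lists of equal length they were 2.27 and 1.16, against −0.2 and −0.14 in the genome. The second bin was the exception, with 1 of 9 higher in OFM at each stage. In the fourth bin, 15 of 18 ranked higher in OFM at HH34 and 10 of 21 at HH30, so the lean to OFM in that bin was seen at the later stage.

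Shared regions had their summits at nearly the same base. In the 151 regions with exactly 1 peak in each list, the summits of OFM and dorsal retina lay a median of 5.0 bp apart at HH34 and 1.0 bp apart at HH30, and 88.1% and 92.7% were within 50 bp. For such regions of the genome the median was 2.0 bp at both stages, with 92.8% (HH34) and 93.1% (HH30) within 50 bp. The widest HH34 offset in the stretch was 934 bp. Regions in all 4 lists were wider, with a median of 614 bp, than those in both OFM lists alone (303 bp) or both dorsal lists alone (255 bp). In the genome these medians were 577, 265 and 255 bp.

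The stage contrast was not used to choose the stretch, although the tissue pairs that were used hold only regions found at both stages. Between stages, OFM had 14 regions with a peak at HH34 and none at HH30 and 48 with the opposite, a ratio of 0.292 against 0.757 in the genome. Dorsal retina had 12 and 34, a ratio of 0.353 against 0.754 in the genome. Peaks with no counterpart made up 5.98% of OFM peaks at HH34 (13.1% of the list) and 18.5% at HH30 (16.3% of the list). In dorsal retina they made up 6.25% at HH34 (12.6% of the list) and 16.0% at HH30 (16.3% of the list). The stretch thus had few regions found at HH34 alone in either tissue, with shares at HH30 near those of the lists.

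Regions in both HH34 lists alone numbered 4, or 1.37% against 4.79% in the genome. Of the 54 other windows of 3.5 Mb on chromosome 1, 52 held more of them, with a median of 14.0. All 4 were weak, at percentiles of 12.8 to 37.0. The 3 named ones lay at 146452495 to 146452758, 145164856 to 145165166 and 145873316 to 145873633. The second of these was 493 bp from an OFM peak and 471 bp from a dorsal peak at HH30. Regions in both HH30 lists alone numbered 12, or 4.12% against 5.69% in the genome, and 49 of the 54 other windows held more of them, with a median of 23.5. Regions held by both lists of 1 stage alone were thus fewer than in most of these windows, for either stage. The strongest, at 145808786 to 145809175 inside the OFM cluster, stood at 63.9 in OFM and 41.6 in dorsal retina. Those at 144822874 to 144823327 and 144834503 to 144835016 stood at 33.6 to 37.7 in OFM and 37.8 to 38.0 in dorsal retina.

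The most frequent restricted kind was the peak of the OFM HH30 list alone, with 35 regions or 12.0%, against 6.7% in the genome and 7.99% on the rest of chromosome 1. Of the 54 other windows, 7 held more of them and 1 as many, with a median of 26.0. OFM HH30 was the longest list, and with lists of equal length the count was 28. Of the 35 regions, 16 lay in the sixth bin and 10 in the seventh, bins that held 114 and 51 of all 291 regions. Their median percentile was 11.2 and 1 of the 35 was in the upper 50% of the list, at 145647406 to 145647845 with a percentile of 50.3. A further 16 regions (5.5%, against 4.49% in the genome and 5.46% on the rest of chromosome 1) were missing from dorsal HH34 alone. There the median percentile was 21.9 in OFM at HH34, and 41.7 in OFM and 14.9 in dorsal retina at HH30. Dorsal peaks in these regions thus lay in the weaker part of the HH30 list, at percentiles of 2.0 to 38.4.

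Several shared regions differed in rank between stages in the same direction in both tissues. At 145752153 to 145752526, in the OFM cluster, the HH34 percentiles were 48.0 in OFM and 58.2 in dorsal retina, and the HH30 percentiles were 4.2 and 2.3. All 4 lists placed its summit at 145752367. At 146459887 to 146460167 OFM stood at 48.7 and dorsal retina at 55.8 at HH34, and OFM at 3.2 and dorsal retina at 14.4 at HH30. The region at 145750984 to 145751716, next to the first of these, stood at 61.1 in OFM and 44.8 in dorsal retina at HH34 and at 39.2 and 13.9 at HH30. Both neighbours in the OFM cluster therefore ranked higher at the later stage in both tissues.

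The opposite direction was seen at 146445170 to 146445492, with 12.1 in OFM and 19.3 in dorsal retina at HH34 and 51.1 and 51.7 at HH30. At 145842867 to 145843802 the values were 31.6 in OFM and 13.7 in dorsal retina at HH34 and 63.2 and 50.8 at HH30. Its OFM summit was at 145843460 at HH34 and at 145842965 at HH30, so the OFM values belong to summits in different parts of the region. Its dorsal summits lay together, at 145842960 and 145842963. At 144997061 to 144998200 the percentiles were 52.3 in OFM and 8.0 in dorsal retina at HH34 and 80.7 and 64.4 at HH30. The OFM peak there was 440 bp wide at HH34 against 1140 bp at HH30. Lower percentiles at HH34 were the common direction. Both HH30 lists are longer than the HH34 list of the same tissue, so an equal rank gives a lower percentile at HH34. With lists of equal length, the median of HH34 minus HH30 in the stretch was −0.87 in OFM and −1.47 in dorsal retina. The genome medians at equal length were −0.33 and −0.31. The values that follow are for the lists as deposited. Of 171 regions in all 4 lists, 106 (62.0%) ranked lower at HH34 in both tissues and 30 (17.5%) ranked higher in both, against 52.3% and 31.0% in the genome. The median difference of HH34 minus HH30 was −1.71 percentile points in OFM and −2.44 in dorsal retina, against −0.9 and −1.13 in the genome and −1.61 and −2.18 on the rest of chromosome 1. By these medians, the stretch thus lay close to the rest of its chromosome. It differed from it in regions of both HH34 lists alone, at 1.37% against 4.54% on the rest of chromosome 1.

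**Figure D5:**
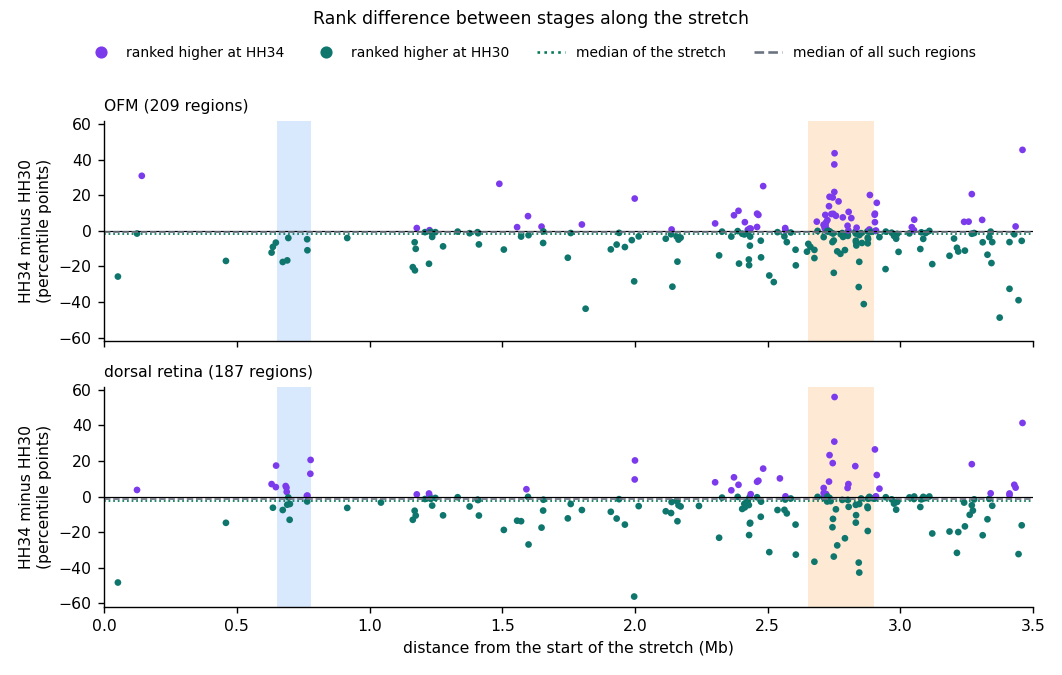
Rank difference between stages (HH34 minus HH30, in percentile points) of regions held at both stages, in OFM (top) and dorsal retina (bottom), against distance from the start of the stretch. Shading marks the dorsal cluster (blue) and the OFM cluster (orange), the dotted line the median of the stretch (−1.71 in OFM, −2.44 in dorsal retina) and the dashed line that of all such regions (−0.9 and −1.13). Most points lie below 0 in both tissues, and the largest positive values stand in the OFM cluster and at the far end.

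The regions were unevenly spaced. The first 500 kb held 4 regions, against 114 in the sixth bin, and the largest gap, of 317.0 kb, lay between 143142356 and 143459417. There were 4 gaps over 100 kb, all before 144043062, against 108 on all of chromosome 1, and the dorsal cluster lay between 2 of them. The whole stretch held fewer regions than 38 of the 54 other windows of chromosome 1, whose median was 329.5. In those windows, regions of both OFM lists alone numbered 0 to 17, with a median of 8.0, and regions of both dorsal lists alone 0 to 9, with a median of 3.0. At the borders, the last region outside lay at 142993867 to 142994243 and the first inside at 143051794 to 143052397. The last inside lay at 146497086 to 146497612 and the first outside at 146506222 to 146506780, and 3 of these 4 regions had a peak in all 4 lists.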

How the data were processed

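Peaks were called by the authors with Genrich (version 0.6 in the submitters' processing notes), jointly over the libraries of a group, per the labels. The notes also name cutadapt 1.16, Bowtie2 2.3.4.3, SAMtools 1.6 and deepTools 3.5.0, and the builds GRCg6a and galGal6. Settings, filters and any shift of Tn5 insertion positions are not given in the sources used here, and each of them can change the number and width of peaks. The deposited lists have no header, and their columns were read in narrowPeak order. The deposited area score ranged upward from just over 200 in each list (200.002 to 200.009), and was used only for ranks within a list. Summit values of −log10 q are the authors' own, as deposited, and −log10 p was not used.

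Lists were merged at an overlap of at least 1 bp with Python 3.11.15, pandas 2.3.3 and numpy 2.4.6. Steps were tested on simulated data. A rank percentile was 100 × (1 − (rank − 1)/list length). No test was run, because each group has 1 joint list. The members, lists and comparisons were chosen with earlier results of these data known. The cluster definition, the group of regions bounded by gaps over 100 kb, the setting that bridges gaps under 300 bp and the percentile band of 20 to 80 were chosen after seeing the data. Named regions followed a rule: the 10 best by the worse of their ranks for each tissue pair, 5 in all 4 lists, 3 for each stage pair and the 3 largest rank differences of like sign in each direction. Regions with rank differences of like sign were ordered by the smaller of those differences. Gene annotation and motifs had been planned and were not run, because the gene table at hand is of another build (GRCg7b), with its last gene on chromosome 1 ending at 196443699 and the last peak at 197606554.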

Additional observations from a re-analysis of the deposited data

How the results depend on the processing

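No value per replicate exists, so leaving out a replicate was not run. No paired analysis was possible because peaks of a group were called jointly. Annotation and motifs were not run.

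A rank by −log10 q moved none of the 4 medians over the stretch, and bridged gaps under 300 bp moved none of 7 region counts over the stretch. Bridging did lower the OFM cluster to 48 regions, against 79, and its medians of OFM minus dorsal to 4.83, against 9.83, at HH34 and to 3.92, against 7.71, at HH30. At equal list length, 20 of 21 results stayed within their limits, and the median of HH34 minus HH30 in OFM became −0.87. For a median the limit was its 95% binomial interval over regions, and for a count a change of 1.5 times. The interval takes regions as independent, which close neighbours are not, and holds no spread between replicates. Among regions of percentile 20 to 80 the medians became 6.56 (OFM minus dorsal, HH34), 5.33 (HH30), −4.26 (HH34 minus HH30, OFM) and −5.39 (dorsal), a setting that leaves out the compressed ends by construction. None of the 4 medians over the stretch changed sign. The genome medians of OFM minus dorsal did at equal list length, at −0.2 (HH34) and −0.14 (HH30), against 0.41 and 0.18. Bins of 250 kb lowered the highest count of both OFM lists alone to 8, since the cluster crosses a bin border.

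Reciprocal overlap of 50% gave 9 regions in both HH34 lists alone. Unmatched peaks became 33 (dorsal against OFM, HH34), 50 (dorsal against OFM, HH30), 34 (OFM, HH34 against HH30) and 28 (dorsal, HH34 against HH30). With summits at most 200 bp apart, the first 3 of these became 27, 41 and 32. The reciprocal setting can only raise counts of unmatched peaks, since it asks for more overlap. The summit setting asks for no overlap, so its direction is not fixed by construction.

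In the upper 50% of each list, which shortens all lists by construction, 161 regions were left. Of these, 7 were held by the OFM pair of lists alone, 5 by the dorsal pair, 0 by the HH34 pair and 5 by the HH30 pair, with 16 in OFM HH30 alone and 102 in all 4 lists. The clusters then held 3 (OFM) and 4 (dorsal) pair regions, under the minimum of 5. Unmatched peaks were 23 in OFM and 11 in dorsal retina at HH34, and 24 and 10 at HH30. Between stages OFM had 6 at HH34 and 24 at HH30, and dorsal retina 4 and 19. Against the full other list, the upper 50% left 1 OFM and 5 dorsal peaks at HH34, and 5 and 5 at HH30. Between stages it left 0 at HH34 and 3 at HH30 in OFM, and 0 and 0 in dorsal retina. At both stages, the surplus of OFM over dorsal unmatched peaks was thus seen when both lists were shortened. It was not seen when the upper 50% was set against the full other list. By construction, OFM peaks unmatched only with both lists shortened overlapped dorsal peaks outside the upper 50% of the dorsal list. Why those dorsal peaks ranked lower was not tested.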
